A study of Mus musculus with 11 samples.

Results

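The 10 genes described here belong to the Notch pathway: the receptors Notch1, Notch2 and Notch3, the ligands Jag1, Jag2 and Dll1, and the transcriptional repressors Hes1, Hey1, Hey2 and Heyl. They were found on the array by gene name, an older synonym or the accession of the probe, and every probe was kept, which gave 15 probes of 41121 and 10 genes of 27561. The study measured RNA of mouse cardiac progenitor cells and of the mouse myoblast line C2C12, whose cells fuse into muscle fibres in culture, on 11 Agilent arrays with a single dye. The 5 arrays labelled KO held progenitors of beta-sarcoglycan null mice (atrium on 1 array, ventricle on 2, aorta on 2). The 3 arrays labelled WT held progenitors of wild-type mice from the same regions, and 3 arrays held C2C12. The design text calls the progenitors mesoangioblasts, a vessel-associated progenitor type, and names C2C12 as the positive control for muscle differentiation. The labels give no age, strain, passage or number of mice, and do not say whether the cells were growing or differentiating.

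Notch receptors are cell-surface proteins that are cut when a ligand of the Jagged or Delta-like family on a neighbouring cell binds them. The released inner part enters the nucleus, joins the DNA-binding protein Rbpj and switches on genes, among them the Hes and Hey repressors. In skeletal muscle the pathway is known for holding satellite cells and myoblasts undifferentiated, with Hey1 and Heyl among its targets there. In the heart and vessels it is known for shaping valves, trabeculae and the smooth muscle coat of arteries, where Notch3 acts.

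Values are log2 of the array signal minus the array's own 75th percentile, so 0 is that percentile itself. A probe counts as above background where the scanner software marked it as well above background. In 3 pairs of arrays (KO ventricle, KO aorta and C2C12, each on slides 1 and 3) the arrays differed by less than the noise between repeated spots. Each pair was averaged and counted as 1 sample, which left 3 KO-labelled samples, 3 WT-labelled samples (in both, 1 each of atrium, ventricle and aorta) and 2 C2C12 samples. The spread within a genotype is thus a spread between regions. The design text speaks of biological triplicates, which these near-identical pairs do not bear out. The joining changes every n and p: between KO-labelled samples and C2C12, 198 genes were called with joined arrays and 1630 with every array as its own sample. No label ties a sample to an animal or culture, so p-values cover only the spread among these samples, and that spread may be technical. KO-labelled and WT-labelled arrays were never on the same slide. A further model took the slide as a block, with slides 1 and 3 together as 1 block and slide 2 as the other. Differences between slides 1 and 3 are thus not blocked. The model sets each genotype against the C2C12 sample of its own block, and its result is called the slide-blocked value. It has a wider error.

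Sgcb, the gene for beta-sarcoglycan, was not lower in the KO-labelled samples. On its brightest probe it read 2.64 in KO atrium, 2.99 in KO ventricle and 2.34 in KO aorta, against 2.07 in WT atrium, 2.20 in WT ventricle and 1.82 in WT aorta. C2C12 read 2.41 and 2.82. The KO-labelled samples thus lay above the WT-labelled ones on that probe (difference 0.63, limma adjusted p = 0.0710). On a second probe, above background on all 11 arrays, the genotypes overlapped. It read 0.39, 0.99 and 0.06 in KO atrium, ventricle and aorta, against −0.04, 0.26 and 0.00 in WT. The remaining probe was above background on no array. The deleted stretch is not given in the sources used here, so the probes may lie outside it. Groups are therefore called KO-labelled and WT-labelled throughout. Of 7 skeletal muscle markers, 7 were above background on at least 1 KO-labelled array, 3 on at least 1 WT-labelled array and 7 in C2C12. Their summed signal, relative to the 75th percentile, was 46.8 to 164 in KO-labelled samples, 0.109 to 0.172 in WT-labelled samples and 80.5 to 193 in C2C12. Of 8 endothelial markers 0 were above background in KO-labelled samples, 1 in WT-labelled samples and 2 in C2C12. Pecam1, Cdh5, Kdr, Tie1 and Emcn were above it on no array. Some other markers ran the opposite way. The summed epicardial markers were 2.09 to 6.72 in KO-labelled and 9.04 to 99.1 in WT-labelled samples, and the summed blood and macrophage markers 0.149 to 0.214 in KO-labelled and 1.19 to 2.34 in WT-labelled samples. Most of the latter sum in WT-labelled samples came from Lyz2. Of the others on that list, C1qb fell by 0.68 (limma adjusted p = 0.0202), Csf1r and Cd68 did not pass (adjusted p = 0.0873 and 0.650), and Ptprc was above background on no array. Most of the epicardial sum came from Msln, which did not pass (−3.19, limma adjusted p = 0.0603). Bnc1 was called lower (adjusted p = 0.00107) and Krt19 higher (adjusted p = 0.0235). Krt19 was above background on 3 of 5 KO-labelled and 0 of 3 WT-labelled arrays. Wt1 was above it on 1 WT-labelled array and Upk3b on no array. Thy1 (a fibroblast marker), Bnc1 (epicardium) and Lyz2 (macrophages) were above background on 0 of 5 KO-labelled arrays and on 3 of 3 WT-labelled arrays. The fibroblast marker Pdgfra fell by 4.11 (limma adjusted p = 0.00103). The fibroblast list did not move as a whole. Dcn was called lower (limma adjusted p = 0.0432), but Col1a1 was called higher (0.77, limma adjusted p = 0.0117). Lum was above background on 1 of 5 KO-labelled arrays and no WT-labelled array, and Tcf21 on no array. The genotypes thus differed in markers of several cell types, and the part of this in the differences below was not tested. In bulk RNA, fewer cells of a type and less RNA per cell cannot be told apart.

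Promoter windows of RefSeq (assembly GRCm38.p6, 250 bases before to 50 bases after a gene's start) were at hand for 7 of the 10 members, in 8 windows. Hes1, Hey1 and Heyl were not searched. They were searched on both strands for 4 motifs: TGGGAA, the core bound by Rbpj; CACGTG, an E-box bound by Hes and Hey proteins; CACGCG, a class C site bound by the same proteins; and CAGCTG, an E-box of the kind bound by muscle regulators such as Myod1. Of 32851 windows of all genes, 25.6% held TGGGAA, 7.15% CACGTG, 9.27% CACGCG and 16.3% CAGCTG. The windows of the ligands with the widest gap between genotypes, and of Hey2, which had the Rbpj core as no other of the 7 searched did, are printed with matches in capitals. No match overlapped another.
Jag2, chr12:112929446-112929745, minus strand: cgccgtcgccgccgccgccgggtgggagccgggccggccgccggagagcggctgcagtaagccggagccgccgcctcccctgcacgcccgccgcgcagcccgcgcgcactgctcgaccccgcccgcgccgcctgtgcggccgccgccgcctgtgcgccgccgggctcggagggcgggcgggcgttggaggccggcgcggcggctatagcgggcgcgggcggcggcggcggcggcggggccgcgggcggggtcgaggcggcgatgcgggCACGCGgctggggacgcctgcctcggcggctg
Dll1, chr17:15376883-15377182, minus strand: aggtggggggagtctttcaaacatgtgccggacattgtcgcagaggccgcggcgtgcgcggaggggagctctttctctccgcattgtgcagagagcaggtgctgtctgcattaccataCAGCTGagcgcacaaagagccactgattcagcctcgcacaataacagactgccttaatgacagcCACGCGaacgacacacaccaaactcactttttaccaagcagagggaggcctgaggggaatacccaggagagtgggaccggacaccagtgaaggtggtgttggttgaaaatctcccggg
Hey2, chr10:30842734-30843033, minus strand: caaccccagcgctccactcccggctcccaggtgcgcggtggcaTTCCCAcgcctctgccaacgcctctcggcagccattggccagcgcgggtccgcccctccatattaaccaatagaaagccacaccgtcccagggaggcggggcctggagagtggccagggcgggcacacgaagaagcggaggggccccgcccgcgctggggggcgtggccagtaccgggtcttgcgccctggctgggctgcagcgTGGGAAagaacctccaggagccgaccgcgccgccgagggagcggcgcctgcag

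In Jag2 a class C site began 18 bases after the start. In Dll1 a CAGCTG began 132 bases and a class C site 68 bases before the start, and a second annotated Dll1 start had no match. In Hey2 the Rbpj core lay at 207 bases before the start, as TTCCCA, and at 3 bases before it, as TGGGAA. At least 2 matches of that core were found in 3.79% of all windows. Jag1 had 2 class C sites and a CAGCTG, Notch2 had a class C site, and Notch1 and Notch3 had none of the 4. A match is a description of the letters and not a binding site.

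Notch3 was the receptor that differed most between the genotypes. On its probe (build mm8, chromosome 17, 31849609 to 31849668, minus strand) it read 2.23 in KO atrium, 3.57 in KO ventricle and 2.42 in KO aorta, against −1.52 in WT atrium, 1.12 in WT ventricle and 0.25 in WT aorta. Every KO-labelled sample was above every WT-labelled one, and C2C12, at 2.24 and 2.53, lay within the KO-labelled range. The mean was 2.74 ± 0.73 in KO-labelled and −0.05 ± 1.34 in WT-labelled samples (SD, n = 3 each). Notch3 rose by 2.79 ± 0.72 (SE, limma adjusted p = 0.0332). The call rested on few samples: adjusted p was 0.0968 without KO ventricle, 0.0711 without KO aorta, 0.0700 without KO atrium and 0.0822 without WT aorta, and 0.0541 with no filter on dim probes. The slide-blocked difference was 3.08 with limma adjusted p = 0.311. The WT-labelled spread came mostly from the atrium, which lay 2.64 below the ventricle. The summed signal of 5 smooth muscle markers was 285 in KO atrium, 208 in KO ventricle and 142 in KO aorta, against 30.3 in WT atrium, 163 in WT ventricle and 96.6 in WT aorta. The sum ranked the WT-labelled samples as Notch3 did, but not the KO-labelled ones. On the brightest probe of each, Acta2, Tagln and Cnn1 ranked the WT-labelled samples so. For Acta2 this depended on the probe. A second probe, above background on all 11 arrays, was lowest in aorta (4.82 in WT atrium, 5.11 in WT ventricle and 4.37 in WT aorta). Another, also above it on all 11, kept the ranking (−0.75, 2.21 and 1.10 in the same order). Smtn did not rank the WT-labelled samples as Notch3 did (1.81 in WT atrium, 1.69 in WT ventricle and 2.04 in WT aorta). Myh11 was above background on no array of either genotype. The part of these markers in the Notch3 values was not tested.

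**Figure D1:**
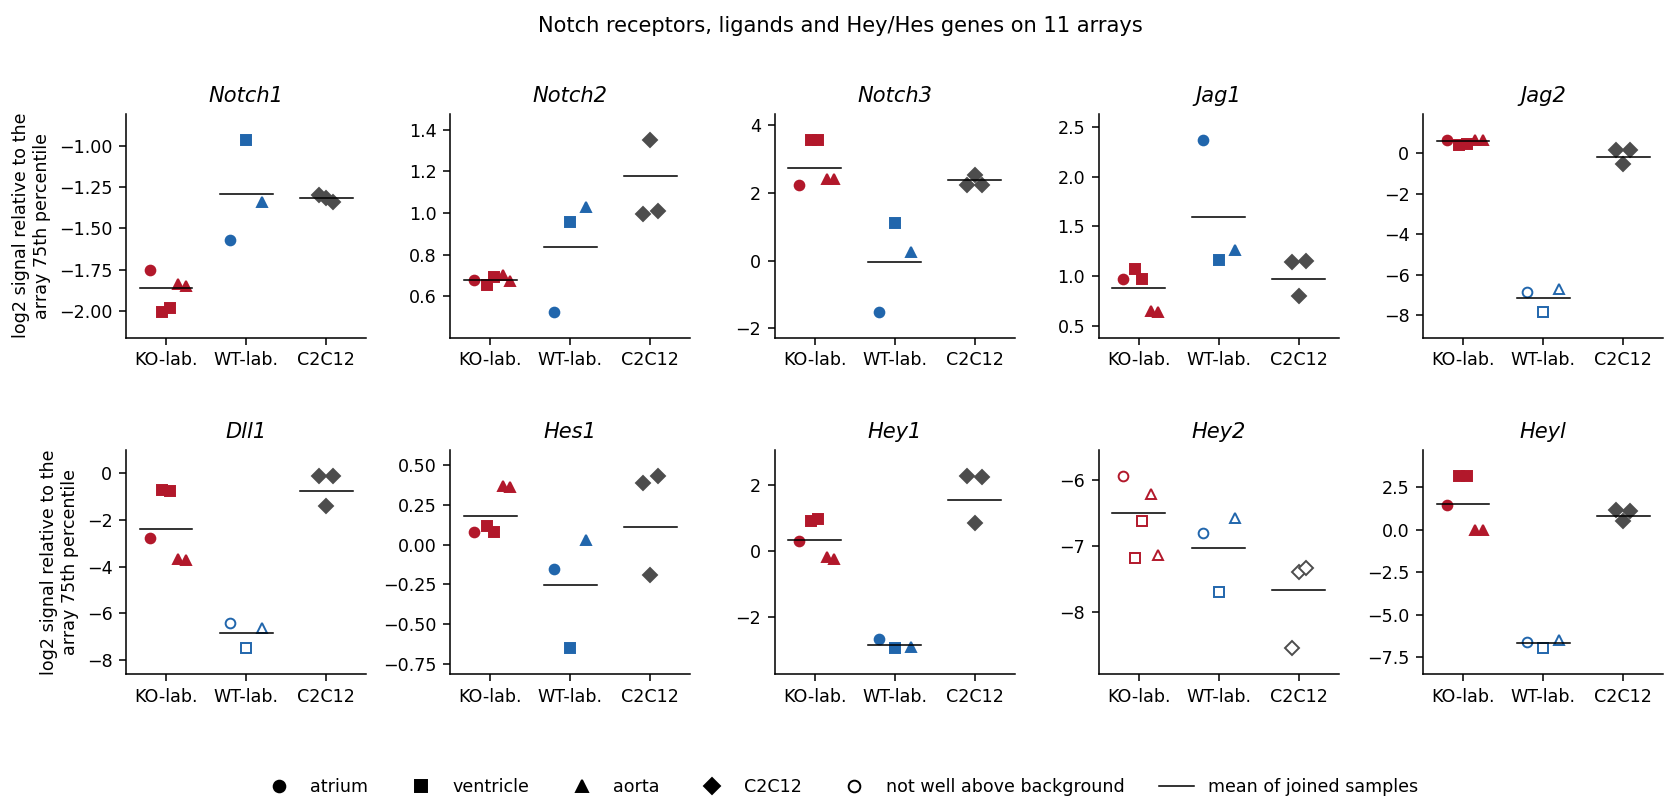
Signal of the 10 genes (main probe) on all 11 arrays, as log2 relative to the array's 75th percentile, with a separate vertical scale for each gene. Symbols mark the region, open symbols are probes not well above background and lines are means of the joined samples. Jag2, Dll1 and Heyl are open on the 3 WT-labelled arrays and filled on all KO-labelled and C2C12 arrays, and Hey2 is open everywhere.

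Notch1, a receptor with broad roles in progenitor cells and endothelium, was read by 2 probes on chromosome 2 of mm8. On the brighter (26281261 to 26281319, minus strand) it read −1.75 in KO atrium, −1.99 in KO ventricle and −1.84 in KO aorta, against −1.57 in WT atrium, −0.96 in WT ventricle and −1.34 in WT aorta. Both C2C12 samples read −1.32. The KO-labelled values all lay below the WT-labelled ones, but the gap between the atria was small. The mean was −1.86 ± 0.12 in KO-labelled and −1.29 ± 0.31 in WT-labelled samples (SD, n = 3 each). The difference of −0.57 ± 0.19 (SE) did not pass the test (limma adjusted p = 0.0721). It passed without WT atrium (−0.71, adjusted p = 0.0237), with every array as its own sample (adjusted p = 0.0123) and in the deposited series-wide table (adjusted p = 0.0415). The slide-blocked difference was also −0.57, with adjusted p = 0.502. On the second probe (26281319 to 26281378) the genotypes overlapped and the difference was −0.48 (adjusted p = 0.181). The main probe was spotted 10 times on each array, with an SD between spots of 0.037 to 0.071 on the log2 scale, which covers spot noise and not the spread between samples.

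Notch2, a receptor known in smooth muscle and liver among other tissues, gave no common direction over its 3 probes on chromosome 3 of mm8 (plus strand). The brightest (98235396 to 98235455) read 0.68 in KO atrium, 0.67 in KO ventricle and 0.69 in KO aorta, against 0.53, 0.96 and 1.03 in WT, and 1.00 and 1.35 in C2C12. The KO-labelled values lay inside the WT-labelled range, and the difference was −0.16 ± 0.17 (SE, limma adjusted p = 0.539, 95% interval −0.58 to 0.26). A dimmer probe (98232687 to 98232746), above background on 3 of 5 KO-labelled arrays, gave −0.50 (adjusted p = 0.0815). The remaining probe (98234325 to 98234384) gave 0.26 (adjusted p = 0.266). The slide-blocked difference of the brightest was 0.19 (adjusted p = 0.828), opposite in sign.

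Jag2, a ligand that activates Notch on neighbouring cells, was above background on all KO-labelled and C2C12 arrays and on no WT-labelled array. Its probe (mm8 chromosome 12, 113356484 to 113356543, minus strand) read 0.68 in KO atrium, 0.43 in KO ventricle and 0.66 in KO aorta. The WT-labelled readings, −6.86 in atrium, −7.82 in ventricle and −6.69 in aorta, were not well above background and have no order. C2C12 read 0.16 and −0.52. The KO-labelled values were close to each other, with a range of 0.25. Jag2 was at least 45.0-fold higher in KO-labelled than in WT-labelled samples (limma adjusted p = 3.94e-05). Such a bound sets the mean of the brighter group against the dimmest signal that counts as above background on the arrays of the other. The p-value printed beside a bound, here and below, comes from the limma fit of the signals as read and does not test the bound. Between the genotypes Jag2, Dll1 and Heyl also passed the filter on dim probes through the KO-labelled arrays alone. The slide-blocked fit also called it (7.03, adjusted p = 0.00307), with a value that rests on signals near background and is not a size.

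Dll1, a Delta-like ligand known for its part in somites and in muscle progenitors, was on the same side with a wide spread. Its probe (mm8 chromosome 17, 15072622 to 15072681, minus strand) read −2.78 in KO atrium, −0.77 in KO ventricle and −3.71 in KO aorta. In WT it was not well above background in any region (−6.39, −7.47 and −6.63), while C2C12 read −0.14 and −1.42. The KO ventricle thus came near C2C12, and the KO aorta was the lowest sample with a measured value. Dll1 was at least 5.61-fold higher in KO-labelled samples (limma adjusted p = 0.00809). It lost the call in the slide-blocked fit (3.14, adjusted p = 0.327) and with normexp background correction and quantile normalization together (1.21, adjusted p = 0.0756). This probe, too, was spotted 10 times. The SD between its spots on the log2 scale was 0.047 to 0.12 on KO-labelled arrays and 0.114 to 0.608 on WT-labelled arrays, where signals were near background.

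Jag1, the ligand whose loss in the mouse disturbs vessels and the outflow tract, did not follow the other ligands. Its brighter probe (mm8 chromosome 2, 136773138 to 136773197, minus strand) read 0.97 in KO atrium, 1.02 in KO ventricle and 0.64 in KO aorta, against 2.38, 1.16 and 1.26 in WT, and 1.15 and 0.80 in C2C12. All KO-labelled values were below the WT-labelled ones, and WT atrium stood highest. The difference of −0.72 ± 0.35 (SE) did not pass (limma adjusted p = 0.174, 95% interval −1.57 to 0.13). The second probe (136774647 to 136774706) was above background on 1 of 5 KO-labelled, 2 of 3 WT-labelled and 1 of 3 C2C12 arrays. It gave −0.71 (adjusted p = 0.239).

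Hey1, a repressor that Notch induces in muscle and vessels, was above background on all 11 arrays. Its probe (mm8 chromosome 3, 8646505 to 8646564, minus strand) read 0.29 in KO atrium, 0.93 in KO ventricle and −0.21 in KO aorta, against −2.65, −2.94 and −2.90 in WT, and 2.27 and 0.85 in C2C12. The groups were well apart, with the WT-labelled samples within 0.28 of each other. The mean was 0.34 ± 0.57 in KO-labelled and −2.83 ± 0.15 in WT-labelled samples (SD, n = 3 each). Hey1 rose by 3.16 ± 0.30 (SE, limma adjusted p = 0.000869). The slide-blocked difference was 1.75 (adjusted p = 0.174), smaller by more than 1.5 times.

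Heyl, the relative of Hey1 known as a Notch target in myoblasts and smooth muscle, was read by 2 probes on chromosome 4 of mm8 (plus strand). The brighter (122752035 to 122752094) read 1.44 in KO atrium, 3.17 in KO ventricle and 0.00 in KO aorta, and 1.16 and 0.52 in C2C12. It was not well above background in WT (−6.62, −6.97 and −6.46). KO ventricle exceeded both C2C12 samples, and KO aorta lay below them. Heyl was at least 87.0-fold higher in KO-labelled than in WT-labelled samples (limma adjusted p = 0.000793, slide-blocked adjusted p = 0.0431). On the second probe (122750548 to 122750607) it read 0.08, 1.33 and −1.45 in KO atrium, ventricle and aorta, which kept the order of regions, and was again not well above background in WT. That probe gave at least 29.6-fold (adjusted p = 0.00105), with a slide-blocked adjusted p = 0.0546.

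Hes1, the most widely used Notch target, moved little. Its probe (mm8 chromosome 16, 29985644 to 29985939, plus strand) read 0.08 in KO atrium, 0.10 in KO ventricle and 0.37 in KO aorta, against −0.15, −0.65 and 0.03 in WT, and 0.41 and −0.19 in C2C12. The KO-labelled values were just above the WT-labelled ones, and the difference of 0.44 ± 0.22 (SE) did not pass (limma adjusted p = 0.179, 95% interval −0.09 to 0.96). The slide-blocked difference had the opposite sign, −0.16 (adjusted p = 0.890). Hey2, the remaining Hey repressor, known in the ventricle of the heart and in arteries, was not well above background on any of the 11 arrays and was not tested. Its probe lies on chromosome 10 of mm8 (30522339 to 30522398, minus strand).

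Of the 9 members tested between the genotypes, 5 rose (Notch3, Jag2, Dll1, Hey1 and Heyl), 0 fell and 4 did not pass (Notch1, Notch2, Jag1 and Hes1). Of all 14999 genes tested, 29.7% were called, 13.7% as higher and 16.1% as lower. The median difference was 2.79 over the 9 members and −0.06 over all genes. Jag2, Dll1 and Heyl entered the test through the KO-labelled arrays alone. Their calls follow in part from that filter, so the count and the median are descriptions. By role, 1 of 3 receptors, 2 of 3 ligands and 2 of 3 tested targets were called. In the slide-blocked fit 2 of 9 members were called, Jag2 and Heyl, both higher, where 6.11% of all genes were called and 3.51% as higher. Over all probes rather than 1 per gene, 29.0% were called without the block. The groups did not overlap for 8 of 9 members, 6 with KO-labelled samples above and 2 below. The same held for 49.2% of all genes, 22.0% with KO-labelled samples above and 27.2% below. Jag2, Dll1 and Heyl, 3 of the 10, were above background on every KO-labelled and C2C12 array and on no WT-labelled array, a pattern held by 2.30% of 15801 genes tested with C2C12.

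**Figure D2:**
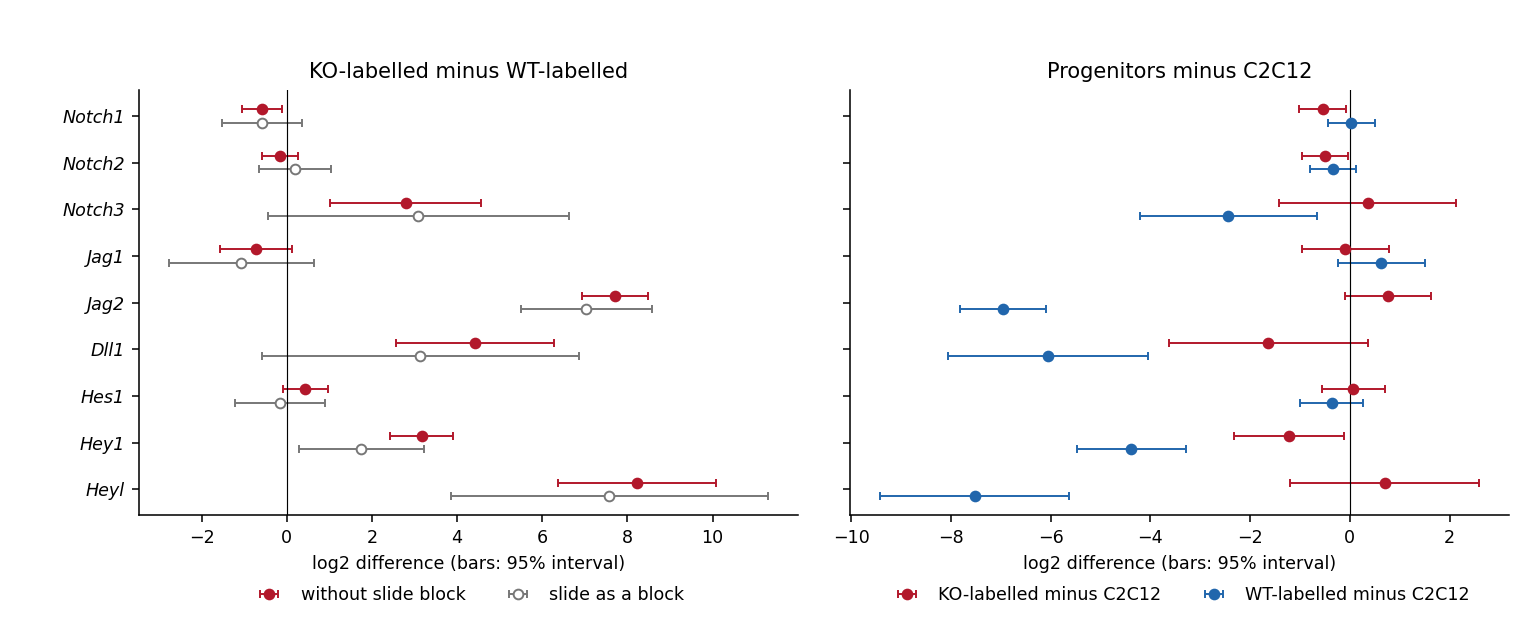
Log2 differences of the 9 tested members with 95% intervals, left between KO-labelled and WT-labelled samples (filled, without a slide block; open, with the slide as a block) and right of each genotype against C2C12. For Jag2, Dll1 and Heyl, WT-labelled signals were not well above background and the points involving them are not sizes. Jag2, Hey1 and Heyl keep their intervals away from 0 in both fits on the left, of which Hey1 was not called with the block after adjustment. On the right the 4 called WT-labelled points lie at −4.39 or below, and the lowest KO-labelled point is −1.64.

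Against C2C12 the genotypes are given side by side, since they share the C2C12 samples. Of the 9 members 0 were called in KO-labelled samples, where 1.25% of 15801 genes were called by limma and 0.589% as lower. At an unadjusted limma p under 0.05 there were 3, Notch1, Notch2 and Hey1, all lower in KO-labelled samples. Counting both directions, 1976 of 15801 genes reached that p. With the slide block 0 members were called, where 0.171% of genes were, 0.0696% as lower. In WT-labelled samples 4 of 9 fell, Jag2, Dll1, Hey1 and Heyl, where 27.0% of genes were called, 13.2% as lower. The slide-blocked fit also called 4 as lower, against 14.4% of genes called, 7.34% as higher and 7.11% as lower. Jag2, Dll1 and Heyl entered these tests through KO-labelled and C2C12 arrays alone. Their calls follow in part from that filter, and both counts are descriptions. Among the ligands, Jag2 differed from C2C12 by 0.76 in KO-labelled samples (limma adjusted p = 0.466, 95% interval −0.10 to 1.63). In C2C12 it was at least 26.5-fold higher than in WT-labelled samples (adjusted p = 2.83e-05). Dll1 differed by −1.64 in KO-labelled samples (adjusted p = 0.502, 95% interval −3.63 to 0.36), and C2C12 was at least 17.5-fold above WT-labelled samples (adjusted p = 0.00229). These KO-labelled intervals are wide enough to hold differences of more than 2-fold.

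Among the targets, Hey1 was 1.22 lower in KO-labelled samples than in C2C12 on average, which did not pass (difference −1.22, limma adjusted p = 0.342). It passed with every array as its own sample (−1.45, adjusted p = 0.0415). In WT-labelled samples Hey1 fell by 4.39 (adjusted p = 0.000650). Heyl differed by 0.70 in KO-labelled samples (adjusted p = 0.827, 95% interval −1.20 to 2.59), and C2C12 was at least 53.6-fold above WT-labelled samples (adjusted p = 0.000678). The order of means was thus C2C12, KO-labelled, WT-labelled for Hey1 and Dll1, and KO-labelled, C2C12, WT-labelled for Jag2, Heyl and Notch3. In each case KO-labelled samples and C2C12, the neighbours in that order, were not called apart. Notch3 differed from C2C12 by 0.35 in KO-labelled samples (adjusted p = 0.930) and by −2.43 in WT-labelled samples (adjusted p = 0.0518). The second value passed in 5 of 14 alternatives, among them the fit without WT atrium (−1.70, adjusted p = 0.0434) and that without WT ventricle (−3.02, adjusted p = 0.0266). Notch1 passed between KO-labelled samples and C2C12 with every array as its own sample (−0.56, adjusted p = 0.0230). With joined arrays Notch1, Notch2, Jag1 and Hes1 were called against C2C12 in neither genotype, with differences of −0.54, −0.50, −0.09 and 0.07 in KO-labelled samples and 0.03, −0.34, 0.63 and −0.37 in WT-labelled samples.

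The C2C12 samples themselves lay more than 2-fold apart for Hey1 and Dll1. Hey1 read 2.27 in the sample of slides 1 and 3 and 0.85 in that of slide 2, and Dll1 −0.14 and −1.42. The summed skeletal muscle markers were 193 and 80.5 in the same samples. The slide-blocked fit takes this gap as the difference between slides.

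Within the KO-labelled samples, 4 of the 9 tested members were highest in ventricle, then atrium, then aorta (Jag1, Dll1, Hey1 and Heyl), an order held by 15.8% of all genes. Ventricle lay at least 2-fold above aorta for 4 of 9 (Notch3, Dll1, Hey1 and Heyl) and for 3.19% of all genes. The log2 difference was 3.17 for Heyl, 2.94 for Dll1, 1.15 for Notch3 and 1.15 for Hey1. The summed skeletal muscle markers had the same order, 164 in KO ventricle, 96.6 in KO atrium and 46.8 in KO aorta. Myog, the factor that starts myoblast differentiation, read 4.61, 1.37 and −0.43 in ventricle, atrium and aorta. These orders were noticed in the values, rest on 1 sample a region and have no test. Repeat arrays of ventricle and aorta differed by at most 0.102 for any of the 9 members, but such repeats do not carry the spread between cultures. No member was called for heart region over both genotypes, where 0.0% of genes were called by limma. At an unadjusted p under 0.05 in the same limma fit there were 721 genes of 14999 and 1 member, Notch3, whose adjusted p was 0.807.

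**Figure D3:**
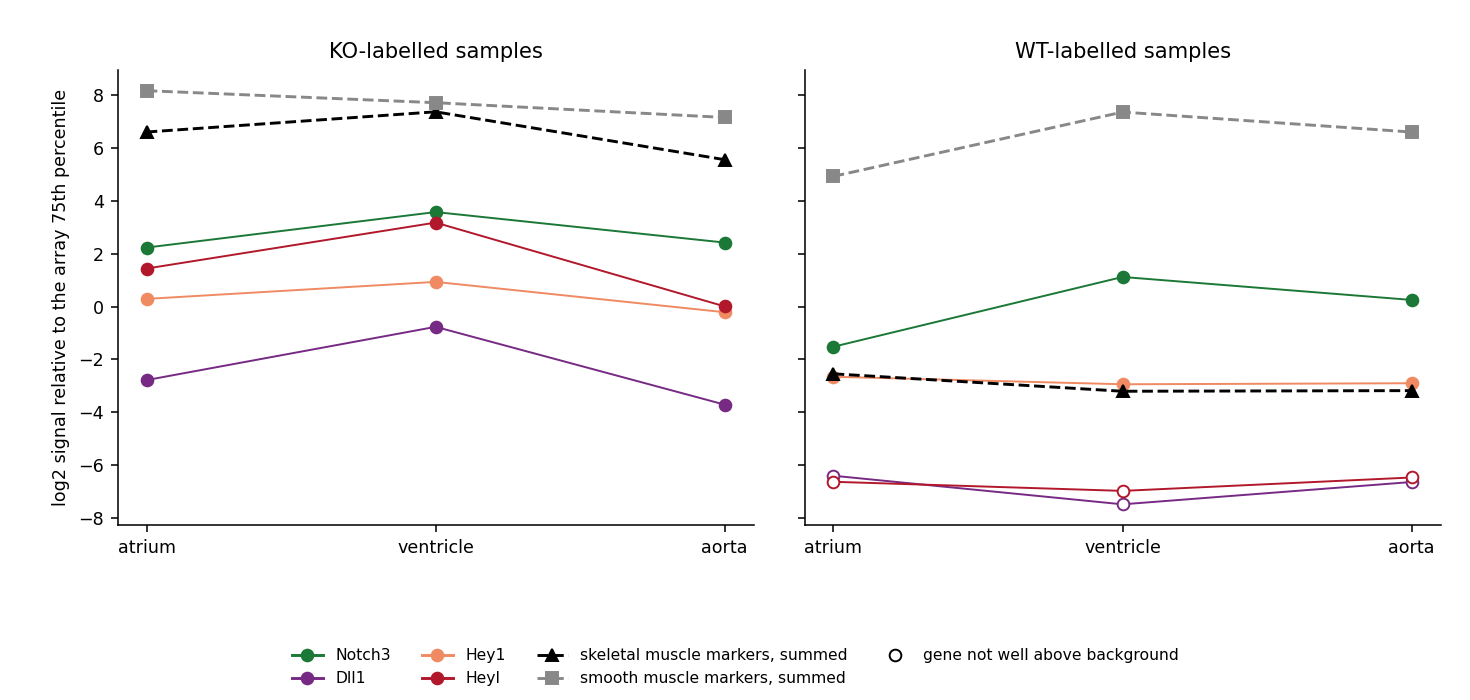
Notch3, Dll1, Hey1 and Heyl by region in KO-labelled and WT-labelled samples, with the log2 of the summed skeletal and smooth muscle markers, on the log2 scale relative to the array's 75th percentile. Each point is 1 sample, and open points are not well above background. In KO-labelled samples the 4 genes and the skeletal muscle sum peak in ventricle, and in WT-labelled samples Notch3 and the smooth muscle sum are lowest in atrium.

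The rest of the pathway was called in both directions. Of 59 other pathway genes 58 were on the array and 49 were tested between the genotypes: 7 rose, 7 fell and 35 did not pass, with a median difference of 0.01. This is close to the 13.7% higher and 16.1% lower of all genes, so the counts set the list apart in neither direction. In the slide-blocked fit 0 rose and 2 fell, Dlk1 and Tle4, where 6.11% of all genes were called. Hes6, which promotes differentiation and opposes Hes1, rose by 3.12 (limma adjusted p = 0.0186): it read 3.12, 3.45 and 2.51 in KO atrium, ventricle and aorta, against −1.63, 0.84 and 0.53 in WT. Like Notch3 it was lowest in WT atrium. Mib2, an enzyme that tags ligands for uptake, rose by 1.96 (adjusted p = 0.00594). Aph1b, part of the protease that releases the inner part of the receptor, rose by 0.81 (adjusted p = 0.00488). Hdac1 (0.91), Kat2b (0.82) and Tle1 (0.53), which modify chromatin or repress with it, also rose.

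Dlk1, a Delta-like protein without the usual receptor-binding region, known to be imprinted, fell furthest. It read −6.81 in KO atrium, −7.37 in KO ventricle and −4.21 in KO aorta, above background on 2 of 5 arrays, against 6.47, 6.75 and 6.67 in WT, and on 0 of 3 arrays in C2C12 (limma adjusted p = 0.000168, slide-blocked adjusted p = 0.0103). Notch4, the receptor best known from endothelium, fell by 1.85 (adjusted p = 0.00467): −3.87, −3.72 and −3.76 in KO atrium, ventricle and aorta against −2.53, −1.53 and −1.73 in WT. Of the 8 endothelial markers only Erg, on 1 of its 2 probes, was above background on WT-labelled arrays (3 of 3, against 0 of 5 KO-labelled arrays), and the other 7 were above it on no array of either genotype. Tle4, a co-repressor, fell by 1.59 (adjusted p = 0.00389). Numb and Numbl, which act against Notch at the membrane, fell by 0.51 (adjusted p = 0.0275) and 0.98 (adjusted p = 0.00482). Maml1, a co-activator in the nuclear complex, fell by 0.48. Rbpjl, a relative of Rbpj, was also called lower, with a signal above background on 2 of 5 KO-labelled arrays and 2 of 3 WT-labelled arrays. Rbpj itself differed by −0.72 (adjusted p = 0.0779). Of the other ligands, Dlk2 differed by −0.76 (adjusted p = 0.287) and Dner was not called (adjusted p = 0.0758, at least 1.36-fold higher in KO-labelled samples). Dll3 was above background on no array and Dll4 on 1 WT-labelled array.

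**Figure D4:**
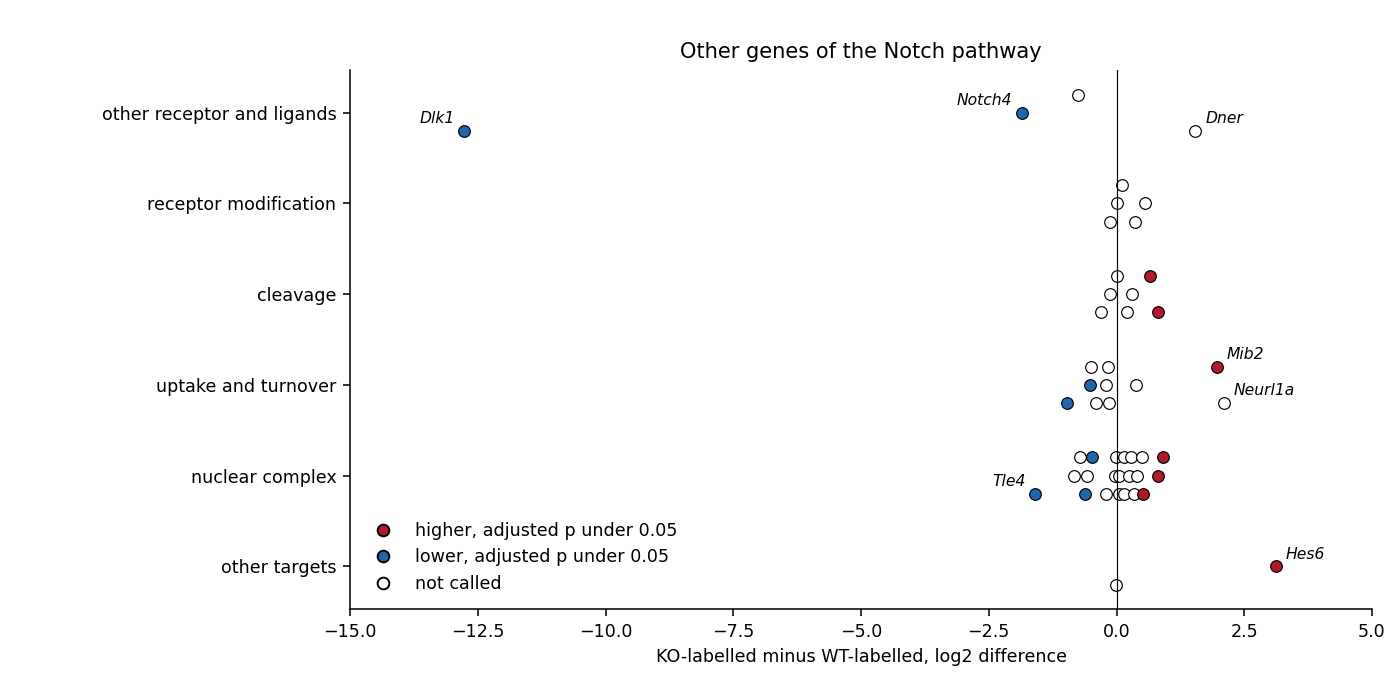
Differences between KO-labelled and WT-labelled samples for the 49 tested pathway genes other than the 10 members, by their place in the pathway, on the log2 scale. Filled points passed limma at an adjusted p under 0.05, 7 higher and 7 lower, and genes beyond 1.5 are named. Most points lie near 0, and Dlk1 lies far to the left, where its place is not a size because it was above background on 2 of 5 KO-labelled arrays.

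The genes whose profile over the 8 samples was nearest to a member's were ranked by the root mean square difference after each gene's mean was removed, among 15800 genes, for the 6 members above background on all arrays. Ddit4, a stress-induced inhibitor of growth signalling, was nearest to Notch3 (0.197). Ldb3, a Z-disc protein of muscle, was nearest to Hey1 (0.334), followed by Sema3d (0.360) and Asb2 (0.374). Bmpr2 was nearest to Notch2 (0.0842), Egln1 to Notch1 (0.116), Tmem68 to Jag1 (0.0982) and Nup43 to Hes1 (0.120). Genes that vary little over the samples have many near neighbours by this measure, so the small values are not comparable with those of Notch3 and Hey1.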

How the data were processed

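Spot intensity values come from the deposited scanner output, made with Agilent Feature Extraction 9.5.3.1 according to the submitters' processing notes. Background had been subtracted and the array design is on build mm8, per the file headers. A deposited table of all arrays holds log2 values, which equalled log2 of the scanner signal within 0.01 for 99.7 to 99.8% of probes, and served as an alternative. Control spots (1639 of 45018) and outlier spots (39 to 120 per array) were left out, 0 spots were saturated, and 41121 of 41174 probes remained. The 75th percentile of signal was 962 to 1145, and 49.0 to 62.0% of probes were well above background. The number of arrays limits the precision. Genes were named through RefSeq (GRCm38.p6) by accession, symbol or synonym.

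Signals were put on the log2 scale and set to the array's 75th percentile. Of 16 array pairs within a group, 3 differed by 0.579 to 0.685 of spot noise (the others by 2.51 or more), and were joined. The design had every array as its own sample, and the joining follows the rule on repeated libraries. Probes well above background on at least 3 fitted arrays were tested with limma 3.58.1 in R 4.3.3 (lmFit, eBayes), 1 probe per gene (highest mean), with Benjamini-Hochberg adjustment over all genes and a threshold of 0.05. KO with WT used 6 samples, and comparisons with C2C12 used 8. The code was tested on simulated data. Alternatives were the slide or region as a block, every array as its own sample, median scaling, normexp (offset 50) with quantile normalization, no filter, the deposited table, every probe, and each sample left out. Plots and tables were made with Python 3.11.15, pandas 2.3.3 and matplotlib 3.10.9. Every probe of the 10 members is described. Of the pathway list, called genes (up to 8 in each direction) and measured ligands and receptors are named, except 1 that is not reported here. Members and lists were chosen with earlier results of these data known.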

Additional observations from a re-analysis of the deposited data

Results flagged for a closer look

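Notch2 stood out because, on its brightest probe, the difference between KO-labelled and WT-labelled samples ran in opposite directions in different regions of the heart. It was 0.15 in atrium, −0.28 in ventricle and −0.34 in aorta on that probe, on the log2 scale. The other probes did not change sign between regions. In the same order the dim probe gave −0.37, −0.31 and −0.82, and the remaining probe 0.58, 0.15 and 0.06. Each value rests on 1 sample a group, and the difference between regions was not tested.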

How the results depend on the processing

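Between KO-labelled and WT-labelled samples, Jag2 was called in 13 of 13 alternatives that change 1 choice, Heyl in 14 of 14 and Dll1 in 11 of 13. These 3 passed the brightness filter through the KO-labelled arrays alone, so their calls follow in part from that filter. The second Heyl probe with the slide block, which changes 2 choices, was not called (adjusted p = 0.0546). Hey1 was called in 12 of 13, Notch3 in 7 of 13 and Notch1 in 3 of 14. Over all members, 122 alternatives of this comparison gave 107 with the same call and direction. The 4459 genes called became 916 with the slide as a block and 2643 to 5869 with 1 sample left out (2643 without WT aorta, 2734 without KO atrium, 2809 without WT ventricle, 2934 without KO aorta). Of the 198 genes called between KO-labelled samples and C2C12, the count was 1630 with every array as its own sample, 99 with no filter, 27 with the slide block and 13 to 465 with 1 sample left out (13 without C2C12 1, 18 without C2C12 2, 465 without WT atrium). The 4263 called between WT-labelled samples and C2C12 became 6659 with every array as its own sample, 2283 with the slide block and 2271 to 5625 with 1 sample left out (2271 without C2C12 1). Heart region went to 123 genes with every array as its own sample. Differences that turned in sign, none of them called, were these. KO-labelled minus WT-labelled was 0.19 (slide block) and 0.26 (remaining probe) for Notch2, and −0.16 (slide block) for Hes1. KO-labelled minus C2C12 was 0.052 for Notch2 (dim probe), and −0.0097 with every array and −0.23 with the slide block for Hes1. With 1 sample left out it ran from −0.061 (without KO ventricle) to 0.61 for Notch3, from −0.12 (without KO ventricle) to 1.46 for Heyl, from −0.27 to 0.081 (without C2C12 1) for Jag1 and from −0.23 (without C2C12 2) to 0.37 for Hes1. WT-labelled minus C2C12 was 0.55 (dim probe) for Notch2. For Notch1 it was −0.026 with median scaling and ran from −0.14 (without WT ventricle) to 0.17 with 1 sample left out. The cause of these changes was not tested. Median scaling shifted the median of all genes between the genotypes by 0.11. The labels give no replicate numbers to pair samples by. With heart region as a block, 3640 genes were called and 5 members, the same ones as without it (Notch3 with adjusted p = 0.0132). With 3 samples a genotype, 1 per region, and no slide with both genotypes, slide and genotype are tied only through C2C12. Signals near background limit Jag2, Dll1 and Heyl to bounds.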
